A study of Mus musculus with 3 samples.

Results

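The proteasome subunit genes of the mouse were followed through the first days of reprogramming. They were taken as every row of the count table named Psma, Psmb, Psmc, Psmd or Psme followed by a number, which gave 43 of 50507 rows: 19 of the core particle (Psma and Psmb), 20 of the regulatory particle (Psmc and Psmd) and 4 activators (Psme). All libraries come from passage 1 fibroblasts of wild-type BL6 embryos that had been transduced with 2 lentiviruses, the tet-STEMCCA cassette, in which doxycycline switches on Oct4, Klf4, Sox2 and c-Myc, and the transactivator rtTA. For the screen, 33 genes were each targeted with 3 pooled siRNAs, next to controls that got non-targeting siRNA (nt) or were mock transfected (Mock). These cells were induced with doxycycline in medium with chiron, an Alk5 inhibitor, ascorbic acid and LIF, and were harvested on day 6. An untransfected time course of the same protocol gave a library a day from Day00, the uninduced fibroblasts, to Day06. Each of the 3 samples is a sequenced pool that holds 1 library of every condition but Mock, which has 2, and the condition of a library was read from its column name. Of 129 libraries with counts, the 127 that also have log2 values were used. They comprise 98 siRNA, 3 nt, 5 Mock and 21 time course libraries, the Mock ones coming 2 each from replicates 1 and 2 and 1 from replicate 3.

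The proteasome degrades proteins that carry ubiquitin chains. The core particle is a barrel of stacked rings, with outer rings of alpha subunits (Psma) that gate the entry and inner rings of beta subunits (Psmb), of which Psmb5, Psmb6 and Psmb7 are the proteolytic ones. Immune signals can replace these with Psmb8, Psmb9 and Psmb10 to form the immunoproteasome. The regulatory particle holds a ring of ATPases (Psmc), which unfold substrates, and non-ATPase subunits (Psmd), among them scaffolds, ubiquitin receptors and the deubiquitinase Psmd14. Psme1 and Psme2 together form the activator PA28, Psme3 forms a nuclear one and Psme4 encodes PA200. Since the subunits assemble in fixed numbers, their transcripts are often regulated together in mammalian cells.

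CEL-Seq2 counts the 3′ ends of transcripts through unique molecular identifiers (UMIs), so a count carries no term for transcript length. Levels are given in CPM, the usual counts-per-total unit, relative to the TMM-scaled total of the 3013 genes that passed a filter on low counts. Libraries totalled between 29656 and 235292 counts, and each held 110 to 1140 counts over the 43 genes together, so that single genes rest on few counts. Intervals cover counting error only. Errors of log2 fold changes are standard errors (SE), and adjusted p come from edgeR's quasi-likelihood test with Benjamini-Hochberg adjustment over all 3013 genes. The siRNAs were transfected in triplicate, and the study calls the replicates independent without saying whether they came from separate cell preparations, so p-values measure the spread between these libraries. RNA was measured in bulk, and fewer cells of a type and less RNA per cell cannot be told apart. At Day00 the 10 fibroblast markers summed to 7492 to 9634 CPM, and all 10 passed the filter. The macrophage and endothelial lists summed to 0 to 41.1 and 0 CPM there, and of their 9 genes the endothelial marker Cdh5 was at 0 in every library.

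Of the 43 genes, 25 passed the filter: 10 of the core particle, 13 of the regulatory particle and the activators Psme3 and Psme4. The other 18 stayed below it: Psma5, Psma8, Psmb3, Psmb5, Psmb7, Psmb8, Psmb9, Psmb10, Psmb11, Psmc2, Psmc5, Psmd3, Psmd4, Psmd5, Psmd9, Psmd10, Psme1 and Psme2. Among all 43, the alpha subunits Psma4, Psma1 and Psma6 had the highest totals, with 6607, 5668 and 4374 counts, followed by the ATPase Psmc6 with 3468. Each of these 4 genes had a count in all 127 libraries. Psma8, the alternative alpha subunit of the testis, had 3 counts in all, and Psmb11, the beta subunit of the thymus, had 19.

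The promoters of Psma1 and Psmb6 of the core and Psmc6 of the regulatory particle are shown, 3 of the 6 genes whose level was lower after siWdr5 (below). They were taken because each had a single promoter window with a stretch of at least 50 bases free of annotated exons. RefSeq windows from 250 bases before to 50 after a start were searched on both strands for TGACNNNGC, the core of the antioxidant response element, and for CCAAT, the site of NF-Y. The stretches printed are the parts upstream of any annotated exon, on GRCm38.p6, 5′ to 3′ on the strand of the gene, and capitals mark the motif matches on either strand. Psma1 lies on the minus strand, with the stretch at chr7:114276119-114276366, and Psmb6 and Psmc6 lie on the plus strand, at chr11:70525107-70525356 and chr14:45329574-45329787.
Psma1: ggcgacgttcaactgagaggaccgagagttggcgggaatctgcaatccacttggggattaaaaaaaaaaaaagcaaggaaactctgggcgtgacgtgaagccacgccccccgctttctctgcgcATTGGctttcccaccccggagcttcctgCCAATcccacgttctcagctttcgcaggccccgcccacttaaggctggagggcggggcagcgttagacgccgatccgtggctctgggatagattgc
Psmb6: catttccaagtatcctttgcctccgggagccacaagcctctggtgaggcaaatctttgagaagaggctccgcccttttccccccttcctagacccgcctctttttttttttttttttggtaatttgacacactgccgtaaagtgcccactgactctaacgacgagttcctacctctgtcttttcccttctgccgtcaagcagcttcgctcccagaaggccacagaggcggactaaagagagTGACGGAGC
Psmc6: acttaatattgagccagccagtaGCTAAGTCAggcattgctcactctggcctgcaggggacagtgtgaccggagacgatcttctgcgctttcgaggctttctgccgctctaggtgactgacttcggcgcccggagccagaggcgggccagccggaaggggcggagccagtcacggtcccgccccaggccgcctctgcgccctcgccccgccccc
Psma1 held 2 CCAAT matches, 1 on each strand, and Psmb6 and Psmc6 held 1 TGACNNNGC match each. Of the lower genes not shown, Psma4 held no match of either motif, and 1 window of Psma6 held 2 CCAAT matches. Windows were found for 36 of the 43 genes, 39 in all. TGACNNNGC was in 6 of these 39 windows (15.4%: Psmb5, Psmb6, Psmc6, Psmd9, Psmd12 and Psme4) and in 12.4% of all 32851 windows. CCAAT was in 14 of the 39 (35.9%), against 37.4% of all windows. The 2 motifs did not overlap in any of the proteasome windows. A match is a run of letters and does not show a bound site.

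The time course asked which genes change as fibroblasts are induced. In an F test over Day01 to Day06 against Day00, 9 of the 25 genes changed: the core genes Psma1, Psma4, Psma6 and Psmb1, the regulatory genes Psmd1, Psmd8 and Psmd13, and the activators Psme3 and Psme4. Of all 3013 genes tested, 42.5% changed in the same test, and the share among the proteasome genes was not above that. Psma1 (adjusted p = 2.44e-07), Psmb1 (1.63e-05), Psma4 (8.74e-05) and Psma6 (1.62e-04) had the 4 lowest adjusted p, and these 4 were called under each of the 8 alternatives. Without replicate 3, only they were called.

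At the end of the time course, 4 of the 25 genes were higher on Day06 than on Day00 and none was lower at an adjusted p under 0.05, by edgeR. Psma6, Psmb1, Psmd1 and Psme3 rose, whereas 10.7% of all genes tested rose and 11.5% fell. At an unadjusted p under 0.05, 5 of the 25 were higher and 2 lower, beside 16.2% and 15.8% of all genes. The median log2 fold change was 0.10 over the 25 genes and 0.05 over all genes tested. RLE size factors lowered the median of all genes by 0.16 on the log2 scale in this comparison, and with them 3 genes rose and 1 (Psmd8) fell.

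Psma6, an alpha subunit of the outer ring (chr12:55384222-55418454, plus strand, GENCODE on GRCm38), read 246, 275 and 215 CPM in the 3 libraries of Day00 and 593, 868 and 545 on Day06. Every library of Day06 lay above every one of Day00, and above those of Day05, at 393, 398 and 393 CPM. The log2 fold change was 1.41 ± 0.26, adjusted p = 3.89e-06, and it was called under all 9 alternatives. Psma6 made up 17.0% of the core sum on Day00 and 32.1% on Day06.

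Psmb1, a non-catalytic beta subunit (chr17:15475021-15499751, minus strand), started from few counts. Its Day00 libraries held 0, 1 and 7 counts, or 0, 21.2 and 57.9 CPM. It read 112, 162 and 152 CPM on Day04, 241, 133 and 206 on Day05 and 74.2, 108 and 123 on Day06, each above the Day00 range. The log2 fold change was 2.43 ± 0.49, adjusted p = 1.65e-05 on Day05 and 1.53 ± 0.56, adjusted p = 0.0332 on Day06. The Day05 call was kept under 8 of 8 alternatives and the Day06 call under 1 of 8, RLE size factors among those that lost it.

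Psme3, the gene of the nuclear PA28 gamma activator (chr11:101316213-101323537, plus strand), was higher from the first day. It read 61.6, 84.7 and 57.9 CPM on Day00, 252, 208 and 251 on Day01 and 193, 235 and 232 on Day06, and neither later group overlapped with Day00. The log2 fold change was 1.77 ± 0.44, adjusted p = 0.00215 on Day01 and 1.73 ± 0.43, adjusted p = 9.30e-04 on Day06. Both calls were lost without replicate 3, with adjusted p = 0.121 and 0.108. Psme4, which encodes PA200, read 123, 63.5 and 91.0 CPM on Day00 and 247, 263 and 131 on Day04 (log2 fold change 1.09 ± 0.40, adjusted p = 0.0407). That difference passed under none of the 8 alternatives.

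Psmd1, the large scaffold of the regulatory particle (chr1:86064387-86139151, plus strand), read 246, 169 and 257 CPM on Day00 and 445, 506 and 382 on Day06. All libraries of Day06 lay above those of Day00 and of Day05, which read 241, 159 and 155. The log2 fold change was 0.88 ± 0.28, adjusted p = 0.0120, and 4 of 9 alternatives kept it. Its exons overlap those of Gm21972 on the same strand, so the reads of these genes may be split between them.

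**Figure D1:**
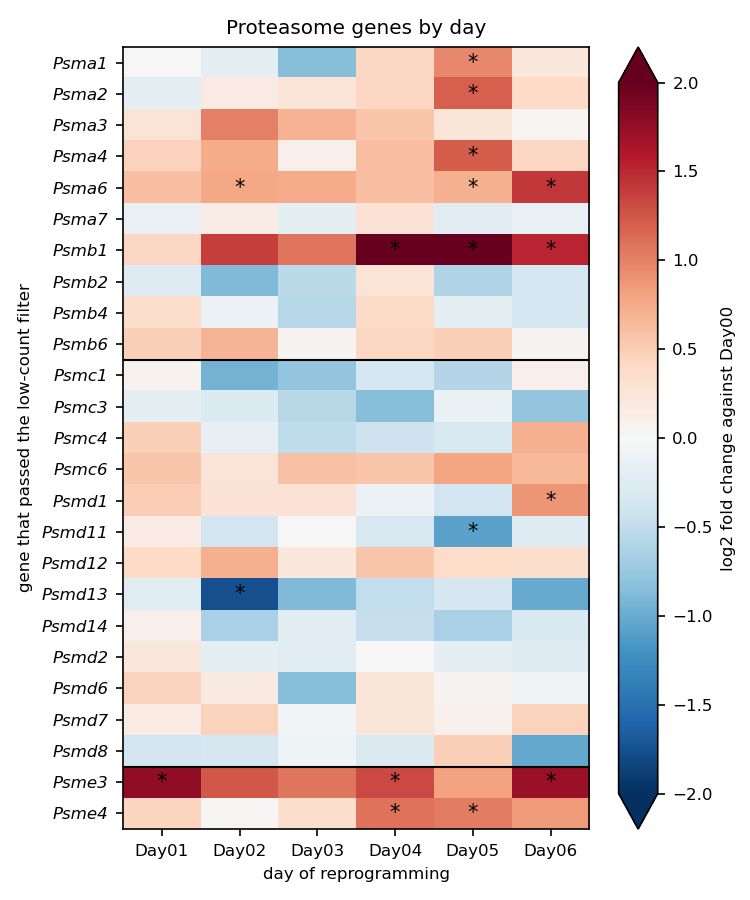
Fitted log2 fold change against Day00 (colour) of the 25 genes that passed the filter, by day, with the core particle on top, then the regulatory particle and the activators. Stars mark an adjusted p under 0.05: 4 on Day06, of which Psmb1 is lost and a fall of Psmd8 gained with RLE size factors, and 7 on Day05.

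Between these ends the calls differed from day to day, and all 6 comparisons share the Day00 libraries. On Day01 1 gene was called (9.89% of all genes), and on Day02 2 (11.6% of all), Psma6 up and Psmd13 down, the Psma6 call being lost under all 8 alternatives. On Day03 none was called (10.9% of all genes), with 3 of the 25 at an unadjusted p under 0.05 by edgeR, beside 22.3% of all genes. On Day04 Psmb1, Psme3 and Psme4 were called higher (18.7% of all genes changed), of which Psmb1 alone was kept with RLE size factors and Psme3 was kept under 1 of 8 alternatives, and on Day05 7 changed (31.9% of all). Psmd13, a non-ATPase subunit, read 123, 212 and 132 CPM on Day00 and 49.0, 45.5 and 36.5 on Day02 (log2 fold change -1.76 ± 0.51, adjusted p = 0.0108), without overlap, and 4 of 8 alternatives kept that call.

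On Day05 the alpha subunits Psma1, Psma2, Psma4 and Psma6 were called higher with Psmb1 and Psme4, and Psmd11, a non-ATPase subunit, lower. With RLE size factors, which lowered the median of all genes by 0.21, the calls of Psma2, Psma6 and Psme4 were lost and 4 remained, as many as on Day06. Of 8 alternatives, Psma2 was kept under 2, Psma6 under 3, Psme4 under 1 and Psmd11 under 4, whereas Psma4 and Psmb1 were kept under all 8 and Psma1 was lost without replicate 3. Psma4 (chr9:54950790-54958030, plus strand) read 226, 233 and 248 CPM on Day00, 431, 571 and 606 on Day05 and 326, 325 and 307 on Day06. All Day05 libraries lay above those of both other days, and the log2 fold change against Day00 was 1.20 ± 0.25, adjusted p = 3.32e-05. Psma1 (chr7:114264606-114276118, minus strand) read 205, 339 and 273 CPM on Day00, 122, 181 and 149.5 on Day03, 381, 624 and 567 on Day05 and 237, 343 and 348 on Day06. Its Day03 libraries lay below all others of these days and its Day05 libraries above them. On Day06 neither gene passed against Day00, with log2 fold changes of 0.22 ± 0.28 for Psma1 and 0.41 ± 0.28 for Psma4 (adjusted p = 0.651 and 0.316). Mitochondrial genes took 14.8% of counts on Day00 and 20.9% on Day05, and genes of ribosomal proteins 2.08% and 3.77%. The part of these shares in the Day05 calls was not tested.

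Summed over its 19 genes, the core particle read 1293, 1461 and 1647 CPM in the libraries of Day00 and 1839.8, 2332 and 2038 on Day06, without overlap. The means were 1467 ± 177 (SD, n = 3) and 2069.9 ± 247, a ratio of 1.41. Psma6 alone made up 17.0% of the Day00 sum and 32.1% of the Day06 sum. The median log2 fold change over the 10 core genes tested was 0.14. Between the same days the sum of the 10 fibroblast markers went from 7492 to 9634 CPM down to 2454 to 3412, and that of the 8 epithelial markers from 20.5 to 24.8 up to 74.2 to 253. Their part in the result was not tested. Day05 was the highest day, at 2532 ± 90.2, and Day03, at 1483 ± 311, was as low as Day00 within the spread. The regulatory particle, over 20 genes, read 2237, 2054 and 2582 CPM on Day00 and 2522, 2693 and 2318 on Day06, and these ranges overlapped. Its daily means stayed between 2067 and 2574 CPM. The sum of the core was 0.578, 0.711 and 0.638 times that of the regulatory particle in the libraries of Day00 and 0.980, 1.17 and 1.32 times on Day05. On Day06 it was lower again, at 0.729, 0.866 and 0.879 times. A sum over chosen genes was given no test, and it is led by its most abundant members.

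**Figure D2:**
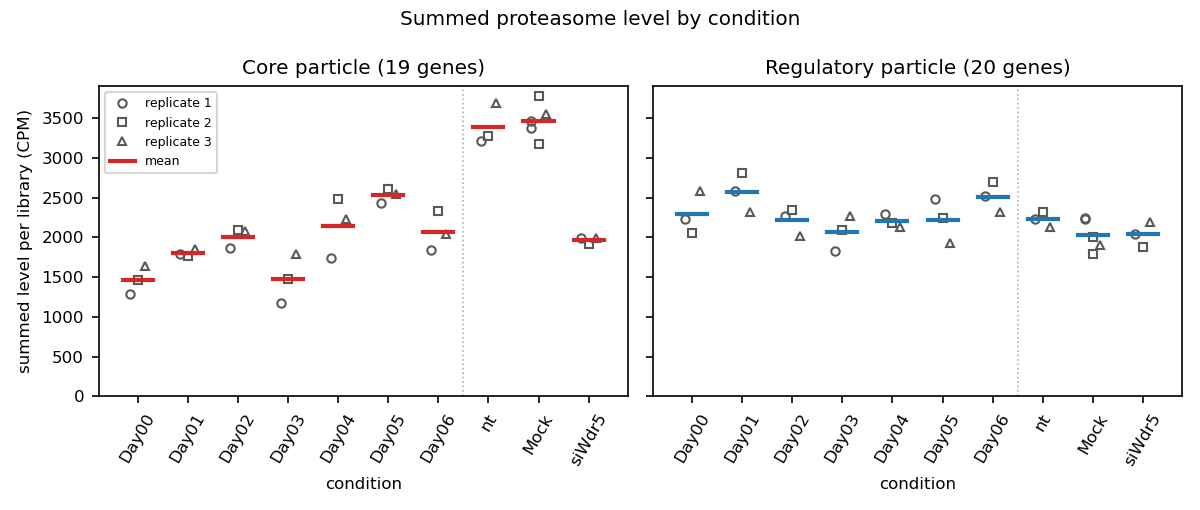
Summed level in CPM of the core (left) and regulatory particle (right) in each library of the time course, nt, Mock and siWdr5, with symbols for the replicates and a line at the mean. The core means run from 1467 on Day00 to 3471 in Mock, and the regulatory means of the 7 days stay between 2067 and 2574.

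Transfected control cells harvested on day 6 were set against untransfected Day06 cells. They differ in transfection and in the added day with the siRNA mix before doxycycline, and these cannot be told apart. Of the 25 genes, 6 were higher in nt than on Day06 (15.6% of all genes tested were higher): the alpha subunits Psma1, Psma3 and Psma4, the catalytic subunit Psmb6, the ATPase Psmc6 and the non-ATPase Psmd8. The ATPase Psmc4 and the scaffold Psmd1 were lower (11.0% of all genes). With RLE size factors, which lowered the median of all genes by 0.14, 4 genes were higher and 4 lower. Psma3 and Psmd8 then lost their calls, and Psmd7 and Psme3 joined the lower genes. Psma3 was kept under 1 of 8 alternatives and Psmd8 under 3 of 9.

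Psma4 read 833, 763 and 899 CPM in the nt libraries, each more than any of the Day06 libraries given above (log2 fold change 1.42 ± 0.22, adjusted p = 4.87e-08). Psma1 read 666, 793 and 858 CPM in nt, again above all Day06 libraries (1.31 ± 0.23, adjusted p = 1.25e-06). Psmc6 (chr14:45329788-45349705, plus strand), the ATPase whose promoter is printed above, read 208, 199 and 252 CPM on Day06 and 416, 538 and 368 in nt, without overlap (0.91 ± 0.27, adjusted p = 0.00648). Psmd1 went the other way, with 167, 149.6 and 163 CPM in nt against 382 CPM or more on Day06 (-1.42 ± 0.29, adjusted p = 5.27e-05). The calls for Psma4 and Psmd1 were kept under all 9 alternatives, that of Psma1 under 8 of 9 and that of Psmc6 under 6 of 9. Psmb6 was kept under 5 of 8 and Psmc4 under 3 of 7. Psmc4 rested on few counts, 3, 1 and 3 in nt and 10, 4 and 17 on Day06.

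The core sum was 3214, 3275 and 3693 CPM in the nt libraries, above every Day06 library, and its mean was 1.64 times that of Day06. Of the difference of 1324 CPM, 73.6% came from Psma1 and Psma4, and without them the ratio was 1.24. The regulatory sum was 2231, 2318 and 2132 CPM in nt, 0.887 times the Day06 mean, and the lowest Day06 library lay at about the level of the highest nt library. In the deposited counts, mitochondrial genes took 16.3% of counts on Day06 and 24.5% in nt, and the TMM factor was 1.25 and 0.960. The fibroblast markers summed to 2454 to 3412 CPM on Day06 and 1421 to 1665 in nt, without overlap. Their part in the result was not tested.

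Mock and nt cells, both transfected without a target, were close. The core sum ran from 3178 to 3776 CPM over the 5 Mock libraries and from 3214 to 3693 over the 3 of nt. A single gene was called (1.56% of all genes tested): Psmd2, a scaffold and ubiquitin-binding subunit, at 25.8, 68.7, 86.5, 124.1 and 44.8 CPM in Mock and 199.8, 209 and 179.7 in nt (-1.52 ± 0.44, adjusted p = 0.0493). The groups did not overlap, but the adjusted p was above 0.05 under each of the 8 alternatives, at 0.0519 or more.

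In the screen, the F test over all 33 siRNAs and Mock against nt called 10 of the 25 genes, against 45.1% of all genes tested: Psma1, Psma2, Psma4, Psma6, Psmb1, Psmc6, Psmd1, Psmd2, Psmd11 and Psme4. Without the replicate block 4 were called (Psma1, Psma4, Psmb1 and Psmc6), and by limma on the deposited log2 values Psma1 and Psma4. Set against nt, 7 of 825 pairs of a gene and an siRNA passed, 6 of them lower and 1 higher, whereas 2.57% of all pairs of the 3013 genes passed. All 7 belonged to 2 siRNAs, siWdr5 and siNcor1, and no pair was called for the other 31. These 33 comparisons share the 3 nt libraries.

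The pairs were also counted without adjustment, those called above included. At an unadjusted p under 0.05, 72 of the 825 pairs (8.73%) were lower and 15 (1.82%) higher, beside 6.54% and 6.0% of the pairs over all genes. In 85 pairs (10.3%) every library of the siRNA lay below every nt library, beside 7.64% over all genes, and in 36 (4.36%) above, beside 6.78%. Since all pairs of a gene use the same 3 nt libraries, an nt mean that is high or low by chance enters each of them. When Mock joined nt as the control, 21 pairs passed over 12 siRNAs, 17 lower and 4 higher, and they held all 7 above. Over all genes 3.24% of pairs passed in that fit.

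The target of siWdr5 encodes WDR5, a shared subunit of the complexes that methylate lysine 4 of histone H3. Wdr5 itself had 2, 3 and 2 counts in the libraries labelled siWdr5 and 2, 3 and 4 in nt. Its 7 counts stood against 7.69 expected from the other transfected libraries. The ratio was 0.910, with an exact 95% Poisson interval of 0.366 to 1.88. By counting error alone, a level under 0.366 of that expected lay outside the interval. A smaller fall could not be told from none at this depth. The study reports a high knockdown efficiency for this target by RT-qPCR at an earlier day. In the libraries labelled siWdr5, 6 of the 25 genes were lower than in nt (15.1% of all genes tested were lower) and none was higher (12.2% of all). These were the alpha subunits Psma1, Psma4 and Psma6, the beta subunits Psmb1 and Psmb6 and the ATPase Psmc6. Among the 25 genes, none of the non-ATPase subunits and neither activator was called. Psmd3, a non-ATPase subunit below the filter, was called in the fit without a filter, with its counts given below.

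Psma1 read 264, 256 and 361 CPM in the libraries labelled siWdr5, all below the lowest nt library (log2 fold change -1.38 ± 0.23, adjusted p = 4.12e-07). Psma4 read 502, 369.6 and 399 CPM, again below all nt libraries (-0.98 ± 0.21, adjusted p = 8.98e-05). Psmc6 read 225, 242 and 209 CPM, also without overlap with nt (-0.94 ± 0.27, adjusted p = 0.00483). In each of the 3 pools these genes were lower in siWdr5 than in nt. The Psma1 call was kept under all 9 alternatives, the Psma4 call under 8 of 9 and the Psmc6 call under 7 of 9.

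The other 3 genes rested on fewer counts or smaller differences. Psmb6, which carries the caspase-like activity (chr11:70525367-70527858, plus strand), read 132, 42.6 and 123 CPM, or 10, 3 and 13 counts, against 216, 149.6 and 302 CPM in nt (-1.16 ± 0.36, adjusted p = 0.00975). Psma6 read 343, 369.6 and 370.2 CPM against 599.5, 598 and 580.0 in nt (-0.72 ± 0.23, adjusted p = 0.0141), and Psmb1 66.0, 114 and 47.5 against 167, 89.7 and 229 (-1.20 ± 0.42, adjusted p = 0.0233). Psma6 and Psmb6 did not overlap with nt, whereas 1 siWdr5 library of Psmb1 lay above 1 of nt. The calls of Psma6 and Psmb1 were lost under 7 of 9 alternatives, RLE size factors, which raised the median of all genes by 0.17, among them, and that of Psmb6 under 4.

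**Figure D3:**
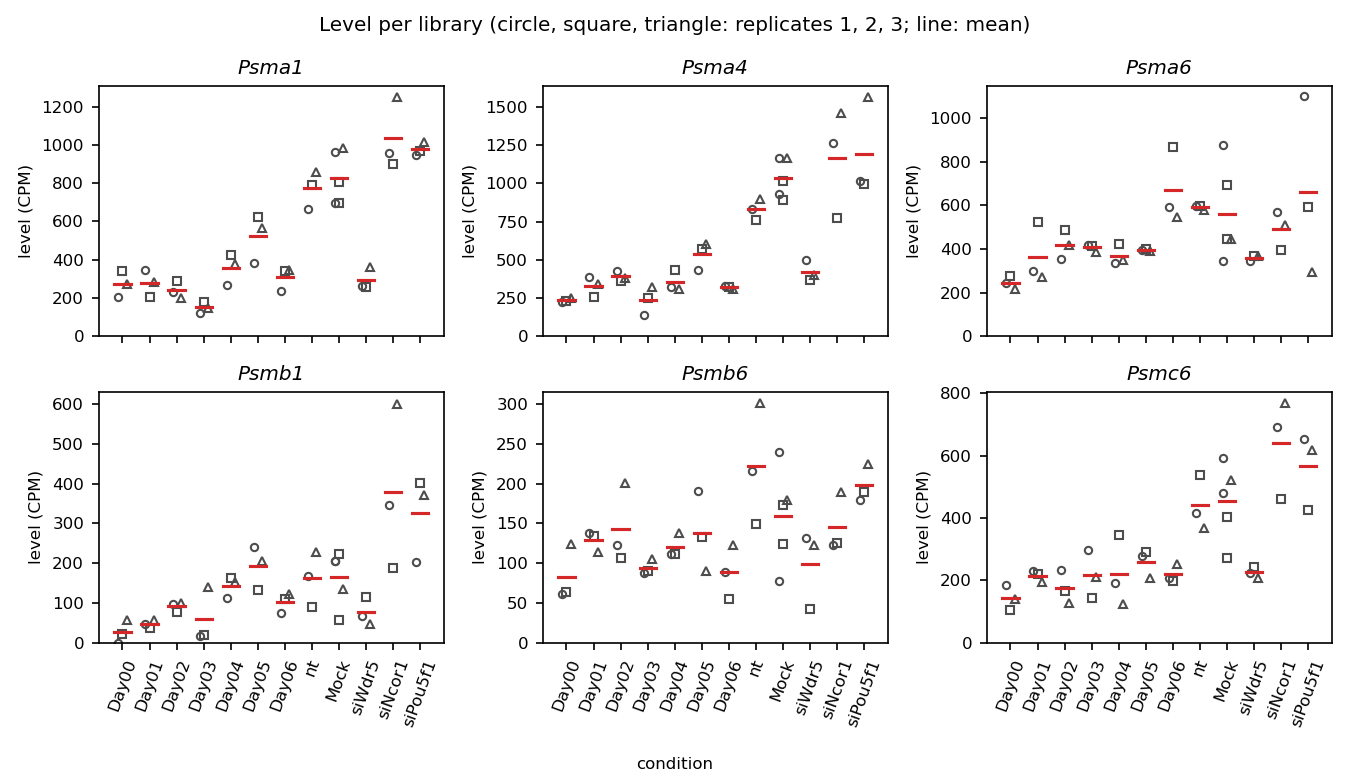
Level in CPM of the 6 genes that were lower in siWdr5 than in nt, in each library of the time course, nt, Mock and 3 siRNAs, with symbols for the replicates and a line at the mean. Psma1, Psma4 and Psmc6 sit below every nt library in siWdr5, while Psmb1 overlaps.

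Against these, the scaffold Psmd1 read 198, 199 and 285 CPM in siWdr5 and 167, 149.6 and 163 in nt, without overlap, but did not pass (log2 fold change 0.53 ± 0.32, adjusted p = 0.213). The median log2 fold change in siWdr5 was -0.82 over the 10 core genes tested, -0.17 over the 13 regulatory ones and 0.00 over all genes. The core sum was 1994, 1919 and 1993 CPM, 0.580 times the nt mean and the lowest of the 33 siRNAs. Without Psma1 and Psma4 the ratio was 0.699. The regulatory sum was 2047, 1876 and 2193 CPM, with 1 library inside the nt range and the other two below it. The mean was 0.915 times that of nt, and this small difference turned its sign with RLE size factors and without Psmc6.

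Values of other kinds moved along with the siWdr5 result. Of the 10 fibroblast markers, all tested, 8 were higher in siWdr5 than in nt and none lower, and their sum was 4292 to 5116 CPM in siWdr5, 1421 to 1665 in nt and 7492 to 9634 on Day00. The 8 epithelial markers, none of which passed the filter, summed to 26.4 to 56.9 CPM in siWdr5 and 131 to 149.9 in nt, and the 7 early pluripotency markers to 9.49 to 42.6 and 32.7 to 167. No epithelial or early pluripotency marker was at 0 over all libraries. Genes of ribosomal proteins took 2.80% of counts in siWdr5 and 4.43% in nt, and mitochondrial genes 22.2% and 24.5%. The part of these in the result was not tested.

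**Figure D4:**
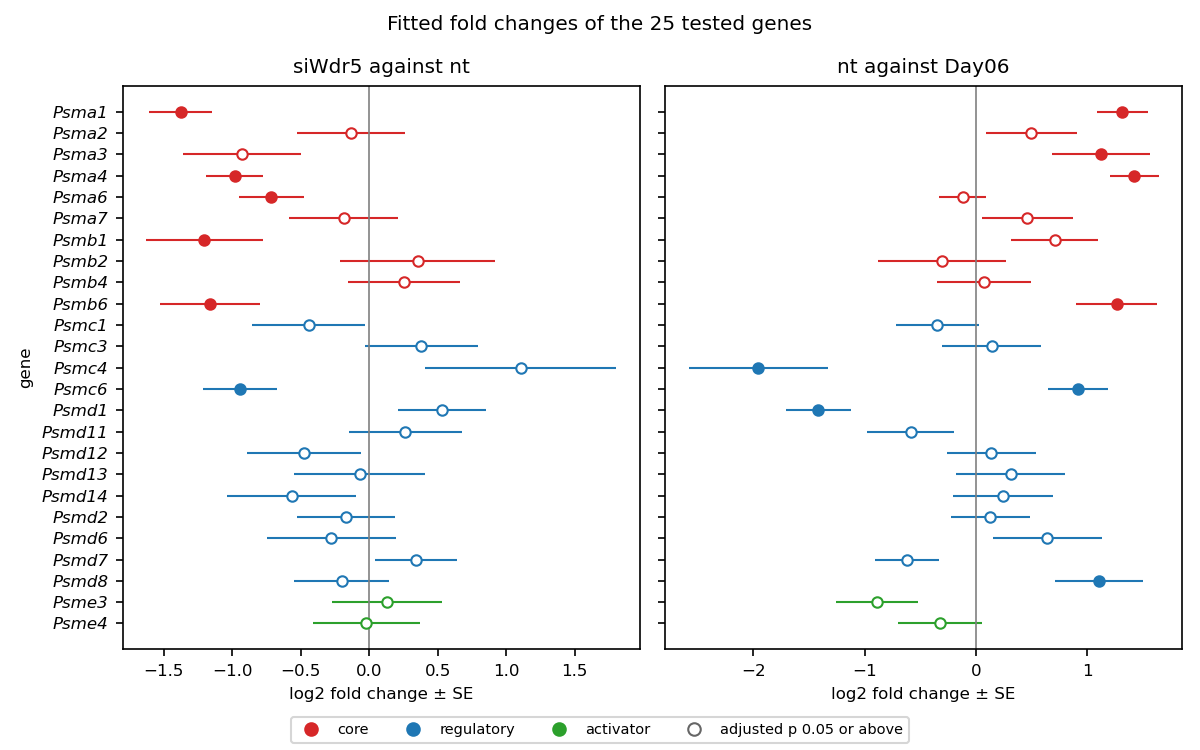
Fitted log2 fold change with its SE of the 25 tested genes, for siWdr5 against nt (left) and nt against Day06 (right), which share the nt libraries. Filled points have an adjusted p under 0.05: 6 on the left, of which Psma6 and Psmb1 are lost with RLE size factors, and 8 on the right.

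The single call outside siWdr5 was Psmb1 in siNcor1, whose target encodes a corepressor that recruits histone deacetylases. Ncor1 had 4, 3 and 5 counts in these libraries, 12 against 20.4 expected (ratio 0.588, exact 95% Poisson interval 0.304 to 1.03). Psmb1 read 347, 188 and 601 CPM there, and its lowest library lay within the nt range (1.25 ± 0.32, adjusted p = 0.00580). Of all genes, 3.42% were higher in this comparison. The call was kept under 5 of 9 alternatives. Without replicate 3, whose library was the highest, it was lost. Psmc6 (0.62 ± 0.24), Psma4 (0.51 ± 0.19) and Psma1 (0.44 ± 0.20) had log2 fold changes above 0 that did not pass (adjusted p = 0.119, 0.0987 and 0.230).

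Over all 43 genes together, the summed level was highest in siPou5f1, siNcor1 and siTdrd7, with means of 6662 ± 359, 6422 ± 1297 and 5996 ± 397 CPM (SD, n = 3), and lowest in siWdr5, siHdac1 and siSet, with 4350.2 ± 188, 4647 ± 313 and 5186 ± 995. The mean in nt was 5929.9 ± 218. The libraries of siPou5f1, at 6686, 6291 and 7008, lay above all nt libraries, and those of siWdr5 and siHdac1 below. Those of siNcor1, siTdrd7 and siSet fell on both sides of the nt range.

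Pou5f1 encodes Oct4, which the cassette also carries, and it had no count in the siPou5f1 libraries, where 0.922 were expected. The core sum in siPou5f1 was 4389.8, 3808 and 4676 CPM, 1.26 times the nt mean, and this was the single siRNA with all core sums above nt. No gene was called there, with Psma4 the nearest (0.55 ± 0.19, adjusted p = 0.0622). Psma4 passed there with RLE size factors, and Psmb1 did when Mock joined nt (0.95, adjusted p = 0.0302). The fibroblast markers summed to 789 to 1112 CPM in siPou5f1, below all nt libraries and with the lowest mean of the siRNAs, and 2 of the 10, Col1a2 and Vim, were called lower, beside 2.19% of all genes. The early pluripotency markers summed to 0 to 23.7 CPM, also below nt, and ribosomal protein genes took 6.28% of counts against 4.43% in nt. The part of these in the result was not tested. Its regulatory sum was 2094, 2152 and 2175 CPM, so the core sum was 2.10, 1.77 and 2.15 times the regulatory one, against 1.44, 1.41 and 1.73 in nt.

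In the libraries labelled siHdac1, the target, a histone deacetylase, had 2, 2 and 14 counts, 18 against 9.83 expected (ratio 1.83, exact 95% Poisson interval 1.09 to 2.89). The excess rests on replicate 3, where nt held 7 counts. In replicates 1 and 2 nt held 6 and 10 counts. The siHdac1 libraries of these replicates totalled only 33709 and 34279 counts, against 75100 and 80136 in nt, so the raw counts cannot be compared directly. The core sums of the siHdac1 libraries were 1744, 2423 and 2939.8 CPM, all below nt, and differed widely among themselves. In these libraries 7 of the 25 genes were lower at an unadjusted p under 0.05, beside 6.31% of all genes tested, and none passed adjustment, with Psma1 at -0.86 ± 0.26, adjusted p = 0.0648. When Mock joined nt as the control, Psma1 and Psma4 passed there (adjusted p = 0.00849 and 0.00361).

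**Figure D5:**
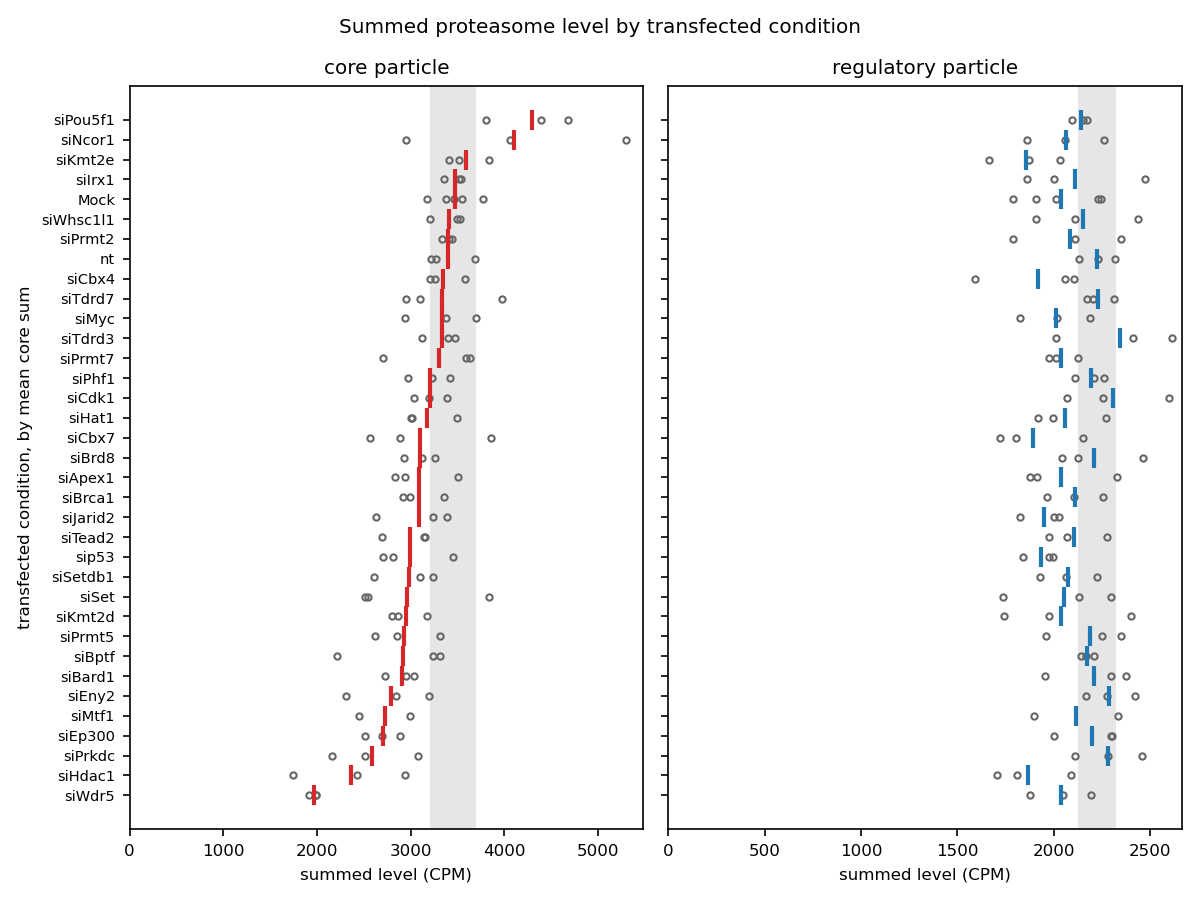
Summed level in CPM of the core (left) and regulatory particle (right) in each library of the 35 transfected conditions, ordered by the mean core sum, with bars at the means and the range of the nt libraries shaded. The mean core sum runs from 1969 CPM in siWdr5 to 4291 in siPou5f1, and the mean regulatory sum from 1858 in siKmt2e to 2348 in siTdrd3.

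In all, 9 of the 33 siRNAs had every core sum below every nt library and 1 above, and 6 had every regulatory sum below and none above. Of the 9, siMtf1 had 2 libraries. The siRNA of lowest regulatory mean, siKmt2e, had the third highest core mean of the siRNAs. Over the 42 condition means of the log2 sums, the correlation between core and regulatory sum was -0.34, and -0.53 without Psma1, Psma4 and Psmc6. It is a description, since the conditions share the pools and the same scaling.

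Likeness between the genes was read from the correlation of their condition means over all 42 conditions, with the replicate removed. Among the 300 pairs of the 25 genes, 6 had a Pearson r above 0.7, and these were all pairs among Psma1, Psma4, Psmb1 and Psmc6. They are 2% of the pairs, beside 1.41% of the pairs over all genes tested, so the share lay near the background. The pairs ran from 0.79 (Psma4 with Psmb1) to 0.92 (Psma1 with Psma4), and the next pair was Psmd1 with Psmd11 at 0.57. Within the 35 transfected conditions the 6 pairs had r of 0.62 to 0.82, and within the 7 days 0.41 to 0.87. Between the libraries of a condition they had r of -0.02 to 0.21. These 4 genes mix an outer and an inner ring and the ATPase ring, and their 3′ ends had no near-identical copy in another annotated transcript, except Psma4.

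Over the wider sets of pairs the correlations were low. The median r was 0.11 over pairs of core genes, 0.09 over pairs of regulatory genes, -0.09 between a core and a regulatory gene and 0.01 over all pairs of the 3013 genes. The mean of the 4 genes over conditions had r of 0.89 with the share of counts in genes of ribosomal proteins. It had r of 0.86 with the share in the 3013 tested genes, -0.72 with the TMM factor, 0.59 with the mitochondrial share and -0.01 with the total counts. The ribosomal share ran from 2.08% on Day00 to 6.28% in siPou5f1. The part of these measures in the correlations was not tested, and the conditions are not independent, since they share pools and depth.

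Of the catalytic subunits, Psmb6 is described above, and the other two were thinly covered. Psmb7, with trypsin-like activity, held 2, 0 and 6 counts in the Day00 libraries, 1, 0 and 3 on Day06, 3, 4 and 5 in nt and 1, 2 and 3 in siWdr5. Psmb5, with chymotrypsin-like activity and the main target of proteasome inhibitors, held 0, 2 and 3 counts on Day00, 1, 0 and 1 on Day06, no count in nt and 0, 0 and 2 in siWdr5, and it had a count in 69 of 127 libraries. Neither Psmb5 nor Psmb7 was called in the fit without a filter on low counts.

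Of the immunoproteasome subunits, Psmb10 was counted most often, with 69 counts over the 21 libraries of the time course and 399 over the 106 transfected ones. It held 0, 1 and 3 counts on Day00, 7, 3 and 4 on Day02, 1, 0 and 0 on Day03, 8, 8 and 5 on Day04, 3, 2 and 7 on Day06 and 2, 2 and 6 in nt. In the fit without a filter it was called over the time course (adjusted p = 0.0484), with a log2 fold change of 2.00 ± 0.75 (SE, adjusted p = 0.302) on Day04. Psmb8 had 5 counts in the time course, 3 of them in a Day06 library, and 0, 1 and 0 in nt and 1, 2 and 1 in siWdr5. Psmb9 had none in the time course, where a total of 0 allows a level of up to 1.65 CPM over the 21 libraries together, and 2 in the transfected libraries. Psmb8 lies in a region with an overlapping antisense gene, and its 3′ end matches many annotated transcripts, so its counts are uncertain.

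Of the PA28 pair, Psme1 held 6, 3 and 6 counts on Day00, 7, 5 and 18 on Day06, 5, 3 and 5 in nt, 2, 2, 0, 1 and 2 in Mock and 6, 5 and 6 in siWdr5, and did not pass in any comparison of the fit without a filter. Psme2 had 24 counts in all, in 22 of the 127 libraries, and a near-identical copy in Psme2b. Of the 18 genes below the filter, that fit called Psmb10 as above, Psmd9 among the transfected conditions (adjusted p = 0.0245) and Psmd3, a scaffold subunit with 0, 0 and 0 counts in nt, 1, 3 and 9 on Day06 and 2, 3 and 6 in siWdr5 (adjusted p = 0.0269 for nt against Day06 and 0.0305 for siWdr5 against nt). Of all 30778 genes in that fit, 3.15% were called over the time course, 4.0% among the transfected conditions, 1.0% in nt against Day06 and 1.28% in siWdr5 against nt.

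Other genes of the pathway were read by list. In the ubiquitin and E1 list, Uba1, the main enzyme that activates ubiquitin, had a log2 fold change of -1.64 ± 0.35, adjusted p = 9.35e-05 in nt against Day06 and 1.14 ± 0.37, adjusted p = 0.0134 in siWdr5 against nt. Rps27a, which encodes ubiquitin fused to a ribosomal protein, went the other way, with 0.90 ± 0.22, adjusted p = 9.65e-04 and -0.90 ± 0.22, adjusted p = 8.29e-04. Ubb, a ubiquitin gene, had -1.001 ± 0.22, adjusted p = 2.69e-04 and 0.57 ± 0.23, adjusted p = 0.0568, and Uba6, a second activating enzyme, had 0.34 ± 0.39 and 0.08 ± 0.37 (adjusted p = 0.543 and 0.890). These pairs of comparisons share the nt libraries.

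Of 3 tested genes of the shuttle and p97 list, Vcp, the p97 unfoldase, was the one called in these comparisons, lower in nt than on Day06 (-1.05 ± 0.33, adjusted p = 0.0108) and higher in siWdr5 than in nt (1.31 ± 0.32, adjusted p = 7.44e-04). Pomp, the assembly chaperone of the core, was the one tested gene of the 6 assembly factors and was called in none of these comparisons (0.31 ± 0.25, adjusted p = 0.351 in siWdr5). Nfe2l2, the one tested of 5 regulators of proteasome genes, encodes the factor NRF2 and did not pass in siWdr5 (0.92 ± 0.49, adjusted p = 0.149) or nt against Day06 (-1.15 ± 0.48, adjusted p = 0.0592), though it did in the F test over the transfected conditions (adjusted p = 0.0241). Of 2 tested proteasome-bound factors, the deubiquitinase Usp14 changed over the time course (adjusted p = 0.00212). B2m, the light chain of MHC class I and the one tested of 7 antigen presentation genes, was higher in siWdr5 (1.14 ± 0.43, adjusted p = 0.0368). Of 5 tested proliferation markers, Ccnb1 and Mcm2 were higher on Day06 and Pcna was lower in siWdr5, where 10.7% and 15.1% of all genes were called in these directions.

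Some of the genes above could share reads with others. Psma4 has a near-identical 3′ match in Gm6542, and AY074887 overlaps it on the opposite strand. Psma3 has 4 such matches, Psmd11 has 2 and Psmd2 has Gm5422. Psmd13 overlaps Sirt3 on the opposite strand. Psmd1 has a match in Adal besides Gm21972, Psme1 has matches in Gm46496 and Gm7776, Psmb5 in Gm3375 and Psmb7 in Nek6, which overlaps it on the opposite strand, so their counts are uncertain. Of the genes below the filter that were called without it, Psmd3 has near-identical matches in Eif2a and Psmd11 and is overlapped by Gm12356 on the opposite strand, and Psmd9 has a match in Gm26745, which overlaps it on the opposite strand. For Psma1, Psma6, Psmb1, Psmb6, Psmc6, Psme3 and Psme4, no match of 50 bases or more at 98% identity was found for the last 500 bases of their transcripts.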

How the data were processed

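RNA of each library was sequenced by CEL-Seq2 in 3 pools. Per the study's methods, the authors aligned reads with Bowtie2 to mm10, counted UMIs per GENCODE gene and deposited raw counts. The deposited log2 values were made by the authors from CPM with size factors, after correcting batch effects by regression (which batch is not given in the sources used here) and removing low-quality libraries. Here the counts were fitted in edgeR 4.0.16 (R 4.3.3) by the quasi-likelihood test, with TMM scaling, a filter on low counts (filterByExpr, minimum 10), and condition and replicate as terms over all 127 libraries. An adjusted p under 0.05 was called. Alternatives were RLE size factors, DESeq2 1.42.0, no filter, no replicate block, limma 3.58.1 on the deposited log2 values, nt and Mock as the control, a fit of the 2 conditions alone (Day06 against Day00 and nt against Day06), and leaving out each replicate. The replicate number marks the pool, and deviations from condition means had a median correlation of 0.0981 between conditions of the same number and -0.0685 otherwise. Genes named with values are the catalytic, immunoproteasome and activator genes, those called on Day06 or against nt, and the 4 of lowest adjusted p over the time course. Those called on other days or between controls were added after their values were seen. The members and lists were chosen with earlier results of these data known. The steps were tested on simulated data. A Mock and a siMtf1 library of replicate 3 without log2 values were left out. One gene of the ubiquitin and E1 list, and the counts over that list, are not reported here.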

Additional observations from a re-analysis of the deposited data

Results flagged for a closer look

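Psmb2, a beta subunit, stood apart in 1 of the 5 Mock libraries, at 173 CPM on 6 counts, against 49.6 in the next. The gap was 0.713 of the whole range, above Dixon's critical value for 5 samples. In all, 30 groups were examined this way, and chance sets apart about 1 group in 20.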

How the results depend on the processing

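Of 278 alternative values for the 33 named results, 157 kept the call, 121 lost it and 0 reversed. Over the time course the 9 calls became 4 to 7 when a replicate was left out, with 4 without replicate 3. On Day06 the 4 calls became 2 without a filter on low counts and 1 to 4 with a replicate left out. Without the replicate block, the 10 calls among transfected conditions became 4, the 7 siRNA calls 4 and the Mock call 0. By limma they became 2, 2 and 0, and the 8 calls of nt against Day06 became 2. Without a filter the siRNA calls became 4, those of nt against Day06 4 and Mock 0. RLE size factors and DESeq2 left 0 for Mock. With nt and Mock as the control, the siRNA calls were 21. Leaving out a replicate gave 4 to 7 calls among transfected conditions, 3 to 6 for siRNAs, 4 to 7 for nt against Day06 and 0 for Mock. On the log2 scale, the core sum of Day06 against Day00 was 0.50, and 0.31 with RLE (0.41 to 0.59 with a replicate left out). For nt against Day06 it was 0.72, with 0.42 by raw totals, 0.54 by mean log2 values and 0.32 without Psma1 and Psma4 (0.65 to 0.83). For siWdr5 it was -0.78, with -0.60, -0.54 and -0.51 by RLE, mean log2 values and without these genes (-0.83 to -0.73). The regulatory sum of Day06 was 0.14, with -0.048 by RLE (0.0085 to 0.28). For nt against Day06 it was -0.17, with -0.47 by raw totals, -0.31 by RLE and -0.35 without Psmc6 (-0.20 to -0.15). For siWdr5 it was -0.13 and reversed to 0.051 by RLE and 0.017 without Psmc6 (-0.21 to -0.04). The sums without Psma1 and Psma4 or Psmc6 were chosen after seeing the data. The cause of these changes was not tested. Few counts per gene limit all single-gene results.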

Other observations

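The Mock library left out held 6403 counts, 4 of them in core and 2 in regulatory genes. The siMtf1 library left out held 7981 counts, with 20 and 16.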
